A study of Mus musculus with 5 samples.

Results

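The genes examined here encode the proteins of the cytosolic ribosome. They were taken by symbol, as Rpl or Rps followed by digits and at most 1 final letter (a, l, x or y), together with Rplp0, Rplp1, Rplp2 and Rpsa, without pseudogenes named -ps and without the Rps6k kinases. The array annotation gave 60 such genes among 19505 named genes, each with 1 probe set (called a probe from here on). By symbol, they were 23 genes of the small subunit, 35 of the large subunit and 2 of its stalk, Rplp0 and Rplp1. The 23 include Rps4l, which RefSeq lists as a transcribed pseudogene. RefSeq lists 83 symbols that match the rule, 81 of them protein coding, and 23 had no named probe and were not analysed here, among them Rps27, Rpl10 and Rplp2.

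RNA came from subcutaneous melanomas of wildtype C57BL/6 mice aged 10 weeks, grown from the transplantable melanoma line B16.F10, here with luciferase and GFP. All 5 mice were given anti-PD-1, an antibody against an inhibitory receptor of T cells, into the peritoneum on days 1, 4 and 8, so that no group was without it. By mouth, every 2 days for 6 days from 2 days after injection, 3 of the mice were given RG7112, which occupies the p53-binding pocket of MDM2. The other 2 were given only the drug's vehicle, 5% DMSO in corn oil, on the same schedule. Tumours were taken on day 13, and each was run on 1 Affymetrix Clariom S array; vehicle tumours carry the numbers 3 and 4 and RG7112 tumours the numbers 1, 2 and 3. All melanoma cells came from 1 line and were profiled together with the host cells that had entered the tumour. The mean level of 11 melanocyte markers was 11.2 to 11.5 on the log2 scale in every tumour.

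A ribosome has a small subunit, which reads the messenger RNA, and a large subunit, which joins the amino acids. Each subunit is built in the nucleolus from ribosomal RNA and about equal amounts of its proteins, whose genes are spread over the genome and whose messenger RNAs often begin with a run of C and T through which mTOR controls their translation. The family is tied to the drug's target. When ribosome assembly is disturbed, Rpl5 and Rpl11 bind Mdm2 together with 5S ribosomal RNA and stop it from marking p53 for degradation, and Rps27l is itself a target gene of p53. Dividing tumour cells need many ribosomes, and activated T cells also raise ribosome production.

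The run of C and T is a known feature of the family's transcription starts. The windows printed here show annotated starts with and without such a run nearby, among genes described in this section. RefSeq promoters of GRCm38.p6, from 250 bases before to 50 bases after an annotated start, were at hand for 47 of the 60 genes, with 58 promoters in all. A run of at least 7 consecutive C or T bases was searched on the gene's strand in the 30 bases around the start (15 on each side). It was found in 25 of the 58 promoters (43.1%), against 18.6% of all 32851 promoters. A run so counted may end before the start or begin after it, so it need not open the messenger RNA. A window without a run likewise does not show that the messenger RNA lacks one. The first 4 windows have such a run, in capitals, and the last 4 have none. All are printed 5′ to 3′ on the gene's strand.
Rpl35a, chr16:33056467-33056496, plus strand: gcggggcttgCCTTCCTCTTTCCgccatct
Rps6, chr4:86857353-86857382, minus strand: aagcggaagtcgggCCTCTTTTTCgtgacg
Rps21, chr2:180257364-180257393, plus strand: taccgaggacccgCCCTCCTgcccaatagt
Rps26, chr10:128626492-128626521, minus strand: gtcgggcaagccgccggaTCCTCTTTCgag
Rpl41, chr10:128549154-128549183, minus strand: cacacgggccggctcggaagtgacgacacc
Rps13, chr7:116334176-116334205, minus strand: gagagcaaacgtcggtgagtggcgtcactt
Rpl11, chr4:136053379-136053408, minus strand: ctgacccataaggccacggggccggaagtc
Rpl5, chr5:107900513-107900542, plus strand: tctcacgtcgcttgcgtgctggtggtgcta

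Other promoter letters were counted over the whole 300 bases on both strands. GGAAGT, the core that ETS factors such as GABP bind, was in 41.4% of the 58 promoters and in 23.8% of all promoters. GGGCGG, the core of the SP1 site, was in 53.4% against 35.7%, and TATAAA was in 10.3% against 13.6%. Read on the other strand, GGAAGT ends in a run of C and T, so it can overlap the run searched at the start. These matches describe the letters and show no binding.

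The comparison asked whether MDM2 inhibition on top of anti-PD-1 changed the transcripts of the ribosome's proteins. None of the 60 genes passed the test in either direction. In the limma fit across all 22203 probes, with a call at a Benjamini-Hochberg adjusted p under 0.05, 315 probes were higher in RG7112 tumours (1.42%) and 7 were lower (0.0315%). At an unadjusted limma p under 0.05, 0 of the 60 genes stood out, while 1974 probes did (8.89%). The smallest adjusted limma p of the family was 0.632, for Rpl35a, with an unadjusted p of 0.0754. In whole tumours, fewer cells of a type and less RNA per cell cannot be told apart.

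The differences between the groups were small for all 60 genes. They ran from -0.28 for Rps21 to 0.32 for Rpl35a on the log2 scale, and the largest was 1.25-fold. The median difference was -0.08, beside -0.03 over all probes, and it was -0.09 after quantile and -0.08 after cyclic loess normalization. It was negative for 43 of the genes (71.7%) and for 55.2% of all probes. The 95% interval of the difference lay within 1.5-fold (0.58 on the log2 scale) for 47 genes and within 2-fold for all 60. For 12 genes the interval ran past 1.5-fold on the lower side and for 1, Rpl35a, on the higher side. The widest bounds were -0.69 for Rpl10l, a 1.62-fold decrease, and 0.67 for Rpl35a, a 1.59-fold increase. These tumours therefore leave room for changes up to those sizes.

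**Figure D1:**
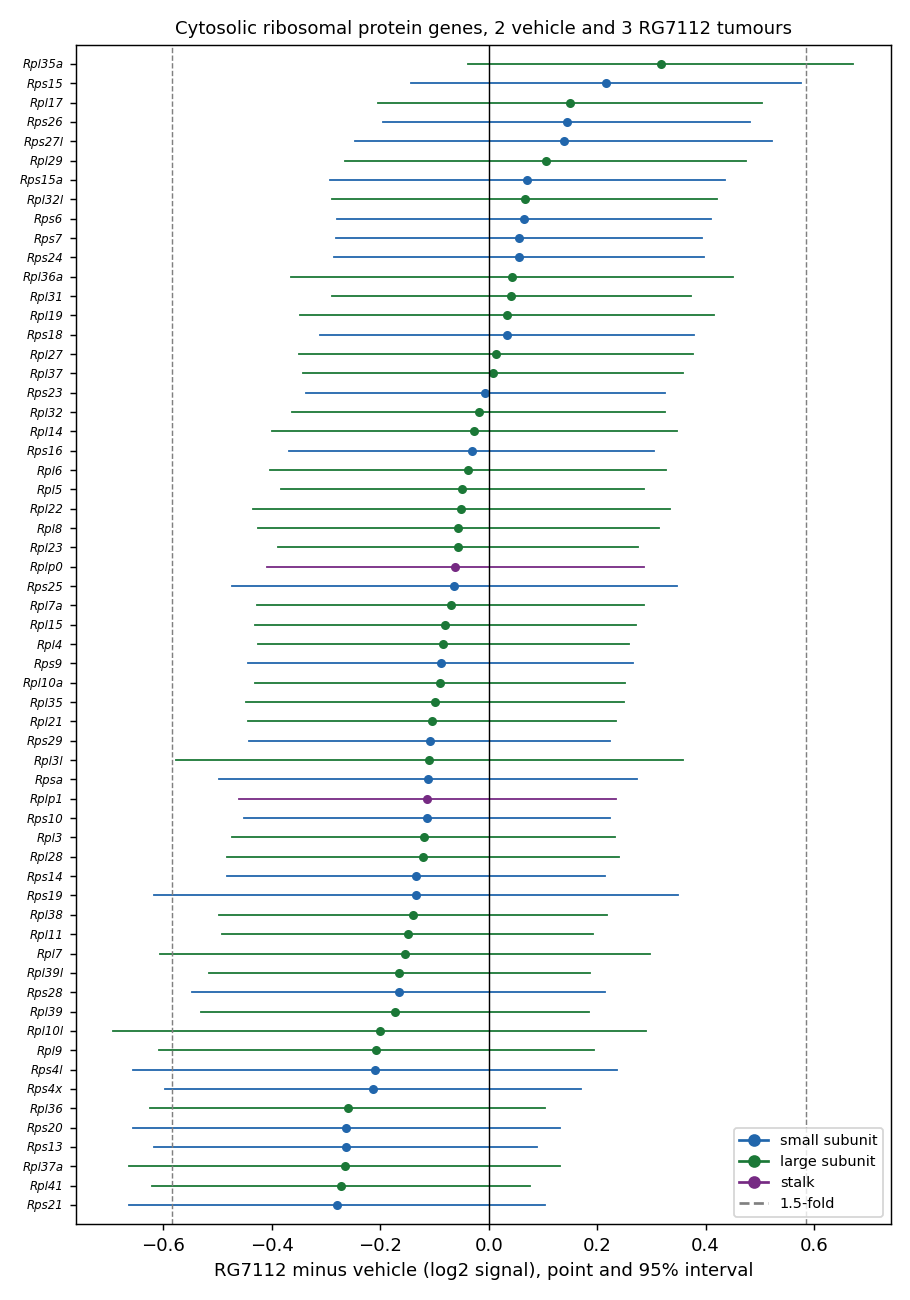
Difference between the mean log2 signals of 3 RG7112 and 2 vehicle tumours for each of the 60 genes, in order of size, with the 95% interval of the limma fit and with colours for the subunits. Dashed lines mark 1.5-fold, and the points lie between -0.28 and 0.32.

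The probes of the family were bright, which bears on their precision and not on how much of each protein's transcript there is. The mean signal of 54 of the 60 probes was in the top 10% of all probes, at 9.07 or above, and 2 probes, for Rpl3l and Rpl39l, were below the median probe. The median residual SD between tumours of a group was 0.13 for the family and 0.18 for all probes. A closer comparison is with the 3699 other probes at least as bright as the dimmest member (8.38) outside 5 paralogues (Rpl3l, Rpl10l, Rpl39l, Rps4l and Rpl32l). Their median residual SD was 0.15, and 58 of them were called higher (1.57%) and 0 lower, with the limma fit giving 4.76% at an unadjusted p under 0.05 in either direction. The largest difference among them was 2.09, and 92.2% were no larger in size than the family's largest. Their median difference was 0.02, and 43.9% of them were negative. The family's median size of difference, 0.11, was near theirs of 0.10.

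**Figure D2:**
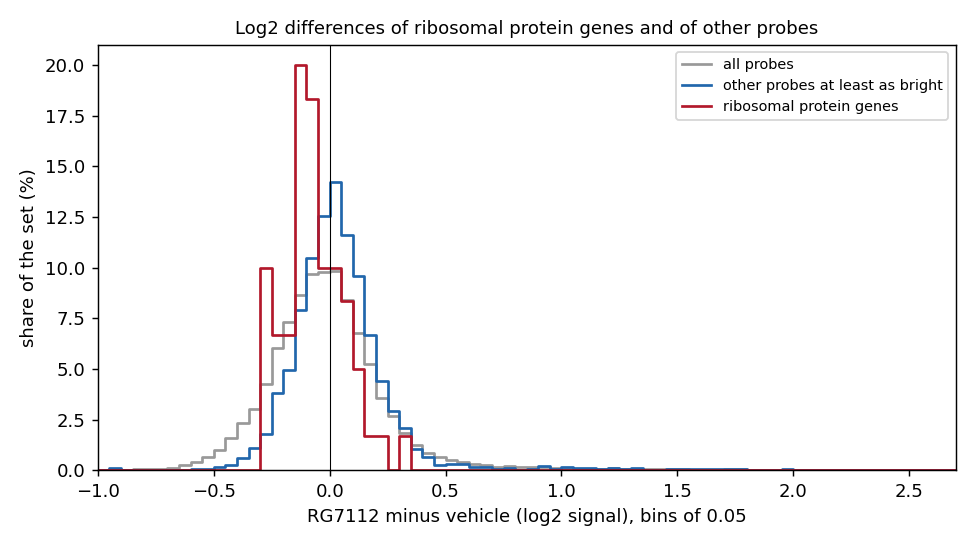
Share of each set (%) by RG7112 minus vehicle difference (log2 signal, bins of 0.05) for the 60 ribosomal protein genes, for 3699 other probes at least as bright and for all 22203 probes. The ribosomal protein genes lie between -0.28 and 0.32 with a median of -0.08, and the other sets reach 2.09 and 2.62.

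The family's mean difference was small and rested largely on RG7112 tumours 1 and 2. The mean log2 signal over the 60 genes was 10.65 and 10.59 in the vehicle tumours, and 10.52, 10.48 and 10.66 in RG7112 tumours 1, 2 and 3. The group means were 10.62 ± 0.04 (SD, n = 2) and 10.55 ± 0.10 (SD, n = 3), a difference of -0.07 ± 0.08 (SE), so the groups overlapped. RG7112 tumours 1 and 2 were below both vehicle tumours, and RG7112 tumour 3 was above them. The small subunit differed by -0.06 ± 0.09 (SE), the large subunit without its stalk by -0.07 ± 0.07 and the stalk by -0.09 ± 0.07.

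The departure of RG7112 tumour 3 ran through much of the family. It was above the other two RG7112 tumours in 44 of the 60 genes (73.3%) and below both in 7. For all probes and for the other bright probes, the share above both was 35.4% each. The median of tumour 3 minus the mean of tumours 1 and 2 was 0.15 for the family, 0.01 for all probes and -0.02 for the other bright probes. Of the 5 tumours, RG7112 tumour 3 held the highest value in 24 genes and vehicle tumour 3 in another 24, while RG7112 tumour 2 held it in 0. The lowest value was in RG7112 tumour 2 in 24 genes and in RG7112 tumour 1 in 20. RG7112 tumours 1 and 2 were both under both vehicle tumours in 31 genes (51.7%), beside 23.3% of all probes. Both were above both vehicle tumours in 3 genes, beside 18.9% of all probes. This tumour was singled out after its values were seen.

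Without RG7112 tumour 3, the median difference of the family was -0.12 and 45 of the 60 genes were negative. The limma fit still called 0 genes, with a smallest adjusted p of 0.396, and 3 genes had an unadjusted p under 0.05, beside 10.9% of all probes in the same fit. These were Rpl37a, at -0.41 with an unadjusted limma p of 0.0305, Rps20, at -0.40 with 0.0347, and Rps21, at -0.40 with 0.0418. Without RG7112 tumour 2 the median was -0.03, and Rpl35a, at 0.40, was the 1 gene with an unadjusted limma p under 0.05, at 0.0492 (adjusted p = 0.525), beside 9.44% of all probes.

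**Figure D3:**
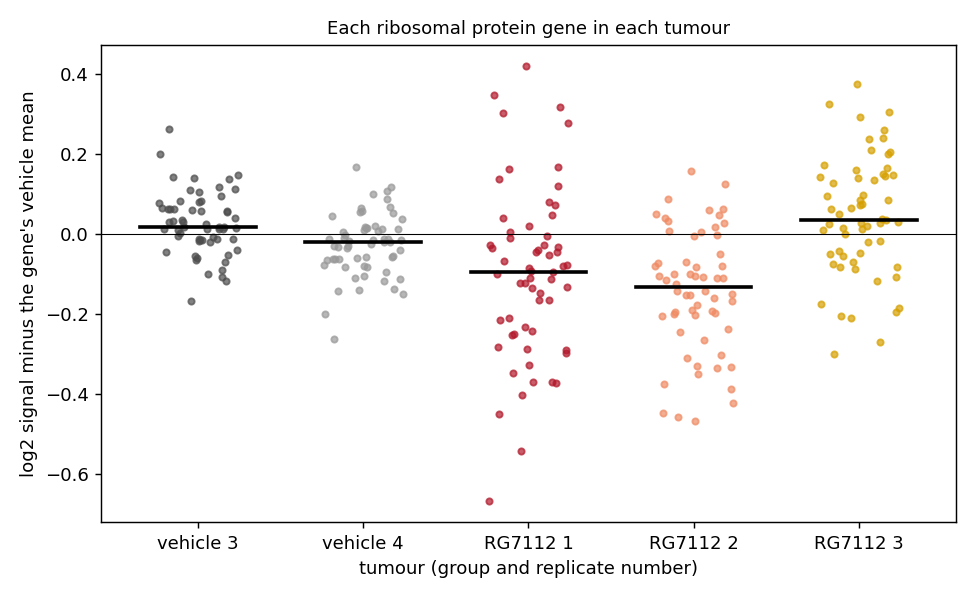
Log2 signal of each of the 60 genes in each tumour minus that gene's vehicle mean, with 1 point per gene and a bar at the median. The medians are -0.09, -0.13 and 0.04 in RG7112 tumours 1, 2 and 3, and the vehicle tumours mirror each other because their mean is the zero line.

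Among the genes with higher RG7112 means, Rpl35a had the largest difference. Rpl35a is a large-subunit protein whose human gene is mutated in some patients with Diamond-Blackfan anaemia, an inherited failure of red cell production. Its log2 signal was 8.13 and 8.26 in the vehicle tumours and 8.61, 8.35 and 8.57 in RG7112 tumours 1 to 3. The groups did not overlap, and the difference was 0.32 ± 0.16 (SE; adjusted p = 0.632 in limma).

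Rps26, a small-subunit protein near the exit of the messenger RNA channel, was the other gene whose RG7112 tumours were all higher. It measured 10.68 and 10.58 with vehicle and 10.80, 10.69 and 10.83 with RG7112, and the difference was 0.14 ± 0.15 (SE). The lowest RG7112 tumour exceeded the highest vehicle tumour by far less than the spread within the groups. These 2 genes are 3.33% of the family, and 10.8% of all probes had groups that did not overlap in this direction.

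The next genes on the higher side overlapped between groups. Rps15, of the small subunit's head, had signals of 11.88 and 11.61 with vehicle and 12.06, 11.87 and 11.95 with RG7112 (difference 0.22 ± 0.16, SE). Rpl17, which lies at the exit of the tunnel for new proteins, had 11.38 and 11.49 against 11.56, 11.46 and 11.74 (0.15 ± 0.16). Rpl29, a large-subunit protein, had 10.57 and 10.50 against 10.84, 10.62 and 10.46 (0.10 ± 0.17). In each of them 1 RG7112 tumour lay below the higher vehicle tumour.

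On the lower side, 7 genes had groups that did not overlap (11.7%), beside 14.0% of all probes. They were Rpl11, Rpl23, Rpl36, Rpl41, Rps10, Rps13 and Rps29, and Rps10 and Rps29 are named after their values were seen. Their differences ran from -0.27 for Rpl41 to -0.06 for Rpl23, and none passed the test.

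Rpl41 is a very short, basic peptide of the large subunit. Its signal was 12.21 and 11.99 in the vehicle tumours and 11.81, 11.77 and 11.90 in the RG7112 tumours, a difference of -0.27 ± 0.16 (SE; adjusted p = 0.695 in limma). All 3 RG7112 tumours were below both vehicle tumours. With an intensity trend in eBayes it was the 1 gene of the family with an unadjusted limma p under 0.05, at 0.0219 (adjusted p = 0.424), beside 8.62% of all probes.

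Rps13, a small-subunit protein, measured 9.67 and 9.59 with vehicle and 9.33, 9.24 and 9.52 with RG7112 (difference -0.26 ± 0.16, SE). Rpl36, of the large subunit, measured 9.74 and 9.63 against 9.28, 9.38 and 9.61 (-0.26 ± 0.17). In both genes RG7112 tumour 3 came close to the vehicle values and the other RG7112 tumours lay lower.

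For Rps21, Rpl37a and Rps20, RG7112 tumour 3 was at the vehicle level. Rps21, a small-subunit protein, had 10.52 and 10.36 with vehicle and 10.11, 9.98 and 10.39 with RG7112 (difference -0.28 ± 0.17, SE). Rpl37a, a zinc-binding protein of the large subunit, had 10.06 and 10.00 against 9.58, 9.65 and 10.05 (-0.27 ± 0.18). Rps20, which contacts the ribosomal RNA of the small subunit's head, had 10.73 and 10.67 against 10.35, 10.24 and 10.71 (-0.26 ± 0.18). RG7112 tumours 1 and 2 were below both vehicle tumours in all 3 genes.

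The proteins reported to bind Mdm2 had no called member and none at an unadjusted limma p under 0.05. Of 15 listed, 11 were measured, and their median difference was -0.05, with 5 positive and 6 negative. Rpl11 had signals of 11.80 and 11.73 with vehicle and 11.51, 11.62 and 11.71 with RG7112, a difference of -0.15 ± 0.16 (SE; adjusted p = 0.873 in limma). Rpl5, its partner in the complex with 5S RNA, had 11.18 and 11.21 against 11.10, 11.12 and 11.23, a difference of -0.05 ± 0.15. The RG7112 tumours lay just under the vehicle tumours for Rpl11 and overlapped them for Rpl5. Rpl23, which also binds Mdm2, had 11.75 and 11.72 against 11.69, 11.63 and 11.71, a difference of -0.06 ± 0.15. Rps14, whose human gene lies in the region lost in the 5q- syndrome, had 10.72 and 10.50 against 10.48, 10.54 and 10.40, a difference of -0.13 ± 0.16.

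Rps27l, the p53 target of the family, measured 8.91 and 8.89 with vehicle and 9.25, 8.79 and 9.07 with RG7112. The difference was 0.14 ± 0.17 (SE; adjusted p = 0.90 in limma), with RG7112 tumours on both sides of the vehicle tumours. Mdm2 itself, a p53 target, measured 9.28 and 9.26 with vehicle and 9.97, 9.64 and 9.20 with RG7112. Its difference was 0.34 ± 0.21 (SE; adjusted p = 0.738 in limma), and RG7112 tumour 3 was below both vehicle tumours. Cdkn1a, the cell cycle inhibitor that p53 induces, measured 10.92 and 10.70 against 10.93, 10.55 and 10.62, a difference of -0.11 ± 0.17. Of 20 measured p53 target genes, limma called 0, and 2 had an unadjusted p under 0.05, beside 8.89% of all probes. Plk2, a kinase, differed by 0.64 ± 0.16 (SE; adjusted p = 0.115 in limma), and Sesn2, a sestrin that restrains mTOR, by -0.49 ± 0.18 (adjusted p = 0.384 in limma).

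Proteins mutated in Diamond-Blackfan anaemia were measured for 13 of 17 genes, with 0 called by limma, 0 at an unadjusted p under 0.05 and a median difference of -0.05. Rps19, the gene most often mutated in that disease, had one of the widest spreads, with 9.85 and 9.72 in the vehicle tumours and 9.50, 9.34 and 10.11 in the RG7112 tumours. RG7112 tumour 3 had the highest value and RG7112 tumour 2 the lowest, and the difference was -0.13 ± 0.22 (SE).

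Other members are known from signalling, cell adhesion or T cell biology. Rps6, which S6 kinases phosphorylate when mTOR is active, measured 11.58 and 11.76 with vehicle and 11.72, 11.67 and 11.82 with RG7112 (difference 0.06 ± 0.16, SE). Rpsa, also described as a laminin receptor, measured 11.01 and 11.13 against 10.78, 10.88 and 11.21 (-0.11 ± 0.18). Rpl22, which T cell development needs, measured 11.18 and 10.78 against 10.95, 11.02 and 10.80 (-0.05 ± 0.17). The groups overlapped in all 3.

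The stalk proteins recruit the factors that drive each step of translation. Rplp0, the base of the stalk, measured 10.98 and 10.79 with vehicle and 10.78, 10.78 and 10.93 with RG7112 (difference -0.06 ± 0.16, SE). Rplp1 measured 12.55 and 12.38 against 12.45, 12.34 and 12.26 (-0.11 ± 0.16). Neither separated the groups.

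The brightest probes were those for Rpl4, Rplp1 and Rps23. Rps23, a protein of the decoding centre, had the shortest distance between its highest and lowest tumour of the 60 genes, with 12.25 and 12.20 in the vehicle tumours and 12.18, 12.23 and 12.25 in the RG7112 tumours. Rpl4, which lines the tunnel, had 12.46 and 12.54 against 12.37, 12.35 and 12.53 (difference -0.08 ± 0.16, SE). Over the family, the distance between the highest and lowest tumour ran from 0.07 to 0.81 with a median of 0.34, and it was at most 0.5 in 52 genes.

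Paralogues with a restricted range of tissues, and a pseudogene, carried the dimmest probes. Rpl3l, the heart and skeletal muscle form of Rpl3, measured 4.62 and 4.33 with vehicle and 4.75, 4.05 and 4.29 with RG7112 (difference -0.11 ± 0.21, SE). Rpl39l, a testis form of Rpl39, measured 4.61 and 4.58 against 4.35, 4.35 and 4.6 (-0.16 ± 0.16). Rpl10l, a testis form of Rpl10, measured 7.35 and 7.20 against 6.61, 7.20 and 7.42 (-0.20 ± 0.22), the widest range of the 60. Rps4l, which RefSeq lists as a transcribed pseudogene, measured 6.00 and 6.34 against 5.63, 6.02 and 6.23 (-0.21 ± 0.20). The groups overlapped in each.

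The common forms were Rpl3, the protein beside the peptide-joining centre, and Rpl39, a small protein of the tunnel. Rpl3 measured 12.08 and 12.06 with vehicle and 11.86, 11.88 and 12.12 with RG7112 (difference -0.12 ± 0.16, SE). Rpl39 measured 10.62 and 10.38 against 10.45, 10.31 and 10.23 (-0.17 ± 0.16). The gap between paralogue and common form, taken within each tumour, differed between the groups by 0.01 for Rpl3l minus Rpl3 and by 0.01 for Rpl39l minus Rpl39. The probes for Rpl3l and Rpl39l were below the median probe, so these gaps do not show that paralogue and common form changed alike. A two-sided exact permutation test of each gap gave p = 1 for each (adjusted p = 1 over the 2 pairs), and its 10 splits allow no p below 0.1. The other 2 planned pairs needed Rps27 and Rpl10.

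Genes with and without a run of C and T in the 30 bases around an annotated start had like medians. Because such a run need not open the messenger RNA, this does not split the genes by control through mTOR. The 25 genes with a run in any promoter had a median difference of -0.07, and 15 of them were negative. The 22 with a promoter and no run had -0.06, with 17 negative, and the 13 with no promoter in the table had -0.11, with 11 negative. Rpl35a and Rps21, at the opposite ends of the family, both have a run in the windows printed above, and Rpl41 and Rps13 have none. Both Rpl35a and Rps21 also have annotated starts without a run, which are not printed. A gene with more starts has more chances to be counted with a run.

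Ribosomal protein genes that the name rule leaves out gave no call. Of 8 listed, 6 were measured, and limma called 0, with 0 at an unadjusted p under 0.05 and a median difference of -0.08. Fau, which encodes a small-subunit protein fused to a ubiquitin-like one, measured 10.46 and 10.52 with vehicle and 10.29, 10.16 and 10.54 with RG7112 (difference -0.16 ± 0.17, SE). Rpl22l1, a paralogue of Rpl22, differed by -0.18 ± 0.16, and Rpl36al, a paralogue of Rpl36a, by 0.20 ± 0.22.

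Genes that build ribosomes or use them gave no call either. Limma called 0 of 69 measured assembly factors, with a median difference of 0.02 and 2 at an unadjusted p under 0.05, beside 8.89% of all probes. Noc2l, a nucleolar protein, differed by 0.40 ± 0.17 (SE; adjusted p = 0.511 in limma), and Dkc1, the pseudouridine synthase of ribosomal RNA, by 0.44 ± 0.19 (adjusted p = 0.521 in limma). Of the RNA polymerase I machinery, which transcribes ribosomal RNA, 11 genes were measured and limma called 0, with 1 at an unadjusted p under 0.05 and a median of 0.03. That gene, Taf1a, a subunit of its promoter selectivity factor, had 4.82 and 5.16 with vehicle and 6.13, 5.79 and 5.41 with RG7112. Its groups did not overlap, and the difference was 0.79 ± 0.22 (SE; adjusted p = 0.161 in limma).

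Of 34 measured translation factors, 0 were called by limma, and their median difference was -0.03. At an unadjusted limma p under 0.05 there was 1, beside 8.89% of all probes. That gene was Eif2s2, a subunit of the factor that brings the initiator tRNA, at -0.38 ± 0.16 (SE; adjusted p = 0.490 in limma). Eif4b, which assists the helicase of initiation, followed at -0.39 ± 0.18 (adjusted p = 0.569 in limma). Eif5a came next by p and went the other way, at 0.31 ± 0.15 (adjusted p = 0.607 in limma). Of the 34 differences, 15 were positive and 19 negative. Of 10 measured regulators of ribosomal protein synthesis, 0 were called by limma and 0 had an unadjusted p under 0.05. Max, the partner of Myc, differed by 0.33 ± 0.16 (SE), Rptor, a subunit of the mTOR complex that acts on translation, by -0.21 ± 0.16, and Eif4ebp1, the repressor that mTOR releases, by -0.19 ± 0.15.

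The median of RG7112 tumour 3 minus the mean of tumours 1 and 2, which was 0.15 for the family, was also taken for these lists. It was 0.14 for assembly factors, 0.14 for translation factors and 0.15 for mitochondrial ribosomal proteins, 0.11 for the RNA polymerase I machinery and 0.03 for the regulators. For p53 target genes it was -0.07. The list means of RG7112 tumours 1, 2 and 3 were 8.70, 8.53 and 8.74 for assembly factors, 10.02, 9.91 and 10.11 for translation factors and 8.16, 8.05 and 8.16 for the RNA polymerase I machinery. In these 3 lists RG7112 tumour 2 was the lowest of the RG7112 tumours, whereas tumour 1 was level with tumour 3 for the RNA polymerase I machinery. Proliferation genes, with 7 measured and 0 called by limma or at an unadjusted p under 0.05, had a median of 0.12, with a mean level of 10.25 in RG7112 tumour 3 and 9.84 to 10.07 in the other 4 tumours. All 7 of their differences between RG7112 and vehicle were positive.

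Markers of macrophages and monocytes rose. Of 12 measured, 10 were called higher with RG7112, with list means of 6.92 and 6.49 in the vehicle tumours and 8.35, 8.04 and 8.07 in the RG7112 tumours. Over all probes, limma called 1.42% higher and 0.0315% lower, and 8.89% had an unadjusted limma p under 0.05 in either direction. Limma also called 1 of 8 T cell markers (Cd8b1), 4 of which had an unadjusted p under 0.05, and all 8 differences were positive. It called 1 of 5 endothelial markers (Kdr), 3 of which had an unadjusted p under 0.05, and all 5 differences were positive. It called 0 of 11 melanocyte markers, 1 of which (Gpr143) had an unadjusted p under 0.05, and 9 differences were positive and 2 negative. It called 0 among the markers of B cells (3 measured), NK cells (5), neutrophils (4), fibroblasts (5), erythroid cells (1), skeletal muscle (5) and keratinocytes (4), where an unadjusted p under 0.05 was found for 1 gene each of NK cells (Prf1), neutrophils (Csf3r) and keratinocytes (Krt14) and for 0 of the others. All 5 differences of NK cell markers were positive, and all 4 of keratinocyte markers and all 3 of B cell markers were negative. RG7112 tumour 3 had a fibroblast list mean of 8.10, against 7.97 and 7.43 in RG7112 tumours 1 and 2, and a skeletal muscle mean of 5.20, against 6.88 and 6.48. The part of these cells in the ribosomal protein values was not tested.

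**Figure D4:**
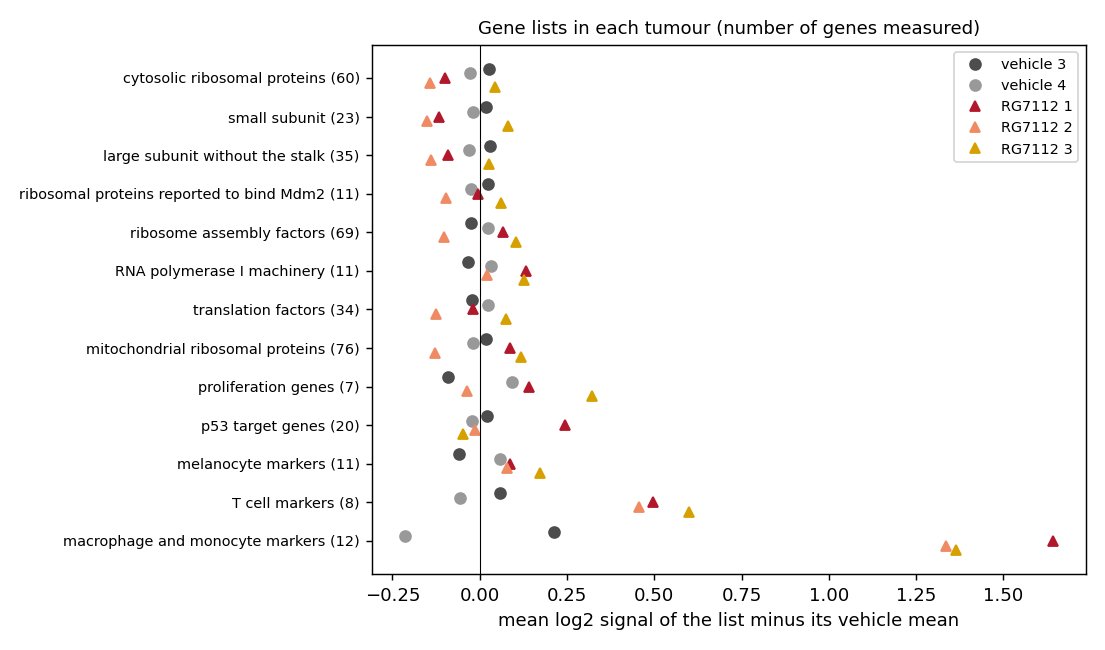
Mean log2 signal of each gene list in each tumour minus the list's vehicle mean, with circles for 2 vehicle tumours and triangles for 3 RG7112 tumours. For the list of all 60 cytosolic ribosomal proteins, RG7112 tumours 1 and 2 lie below both vehicle tumours and tumour 3 above. For the large subunit alone, RG7112 tumour 3 lies between the vehicle tumours. All 3 RG7112 tumours lie far to the right for macrophage and monocyte markers.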

How the data were processed

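The deposited values are log2 signals of 22203 probes on 5 arrays, made by the authors with oligo and RMA per the submitters' processing notes; no versions were stated in the sources at hand. RMA equalises the arrays' distributions, so a shift of total RNA cannot be seen. Array medians were 5.76 to 5.81, no arrays were identical, and correlations across probes were 0.983 to 0.992. Each tumour is from its own mouse, and the number of arrays limits the precision. Scan dates and raw scanner files were not used here.

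The platform annotation named 1 gene for 19572 probes. The other 2631 had no gene name or more than 1, and these cases were counted together. No symbol differed from the RefSeq symbol where its gene identifier was found in RefSeq, and other symbols were kept as given. RefSeq lists 321 ribosomal protein pseudogenes by -ps name, nearly identical copies whose transcripts a probe may also read.

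RG7112 minus vehicle was fitted with limma 3.58.1 in R 4.3.3 (lmFit, eBayes; 3 residual and 7.92 prior degrees of freedom), with p-values adjusted over all probes (Benjamini-Hochberg). The fit was tested on simulated data. Lists are described by counts and medians. Named genes were a fixed set, the 6 genes with the smallest p in each direction, the 3 brightest and 3 dimmest probes, up to 3 genes per other list with the smallest p, and Mdm2 and Cdkn1a; not all are printed. Members and lists were chosen with earlier results of these data known. Alternatives were the variance prior, array weights, normalization, a filter on dim probes, the probe per gene, the threshold and leaving out each tumour.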

Additional observations from a re-analysis of the deposited data

How the results depend on the processing

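No ribosomal protein gene was called in limma in any of 15 settings, and 0 to 3 had an unadjusted p under 0.05. Not all of these settings could add a call. A minimum of 1.5-fold can only remove calls, and averaging the probes of a gene leaves members, with 1 probe each, as they were. The family's median and mean difference stayed negative over 14 settings, from -0.12 to -0.03 for each. Settings of the variance prior and of the probe per gene leave each member's difference as it was, so they could not move these values. The setting that left out Rpl3l, Rpl10l, Rpl39l, Rps4l and Rpl32l was chosen after seeing the data. Of 31 named ribosomal protein genes, 7 changed sign in some setting, with differences between -0.41 and 0.40. Probes called lower numbered 16 with array weights, 4 after cyclic loess, 2 without dim probes and 29 at adjusted p under 0.10, against 7. Leaving out 1 tumour gave 65 to 268 probes called higher, with 151 without vehicle tumour 3 and 65 without vehicle tumour 4, and 0 to 5 called lower. The change of Rpl3l minus Rpl3 ran from -0.23 to 0.15 and that of Rpl39l minus Rpl39 from -0.12 to 0.11, and neither could be given without dim probes. The cause was not tested. Leaving out a vehicle tumour assumes that the other varies like the RG7112 tumours. No paired analysis was made, because the labels link no vehicle tumour to an RG7112 tumour. The groups share only replicate number 3, which is not stated to mark a pair. The 95% interval of a typical member reached 0.36 on the log2 scale (1.28-fold) to each side, so smaller shifts could not be seen. This interval is not adjusted for the number of probes tested, so larger shifts could also go uncalled. Plk2, for example, differed by 0.64 ± 0.16 (SE) and was not called (adjusted p = 0.115 in limma).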

Other observations

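Mitochondrial ribosomal proteins are encoded in the nucleus and build the separate ribosome of mitochondria. They gave no call among 76 measured genes in limma, with a median difference of 0.03. At an unadjusted limma p under 0.05 there were 3, beside 8.89% of all probes. Their list mean was 8.02 and 7.98 in the vehicle tumours and 8.09, 7.87 and 8.12 in RG7112 tumours 1, 2 and 3. RG7112 tumour 2 was the lowest tumour for this list and for the cytosolic family, whereas RG7112 tumour 1 was above both vehicle tumours here and below both for the cytosolic family. The difference between the lists was not tested. Mrps22, a small-subunit protein, measured 6.98 and 6.86 with vehicle and 7.33, 7.33 and 7.32 with RG7112, a difference of 0.41 ± 0.15 (SE; adjusted p = 0.393 in limma). Mrps27, also of the small subunit, differed by 0.44 ± 0.18 (SE; adjusted p = 0.481 in limma). Mrpl54, of the large subunit, measured 7.27 and 7.11 with vehicle and 6.51, 6.73 and 6.89 with RG7112, a difference of -0.48 ± 0.17 (SE; adjusted p = 0.364 in limma). The groups did not overlap for any of these 3 genes, which were named for having the smallest p of the 76. In the whole list the groups did not overlap for 7 genes on the higher side and 7 on the lower. Over all probes the shares were 10.8% and 14.0%.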
